A study of Mus musculus with 22 samples.

Results

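The SoxC genes Sox4, Sox11 and Sox12 were followed through RNA-seq libraries of the developing mouse trachea. The members were the rows of the deposited count table that carry these 3 gene symbols, out of 26202 symbols, and each member had 1 row. They were chosen because earlier results of these data had shown them to differ between Notum mutant and control chondroblasts, so every comparison that served to choose them, and any that uses the same chondroblast libraries, is described here without a test of these 3 genes.

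The table held 5 libraries of whole trachea from control Wnt5a f/f embryos at E11.5 and 4 from Dermo1Cre; Wnt5a f/f embryos of the same age, each made from 5 tracheas. Dermo1Cre acts in the mesenchyme, so epithelial Wnt5a was left intact in these mutants. At E13.5, tracheas carrying the gamma SMA eGFP reporter were sorted into Epcam-positive epithelium, GFP-positive muscle and double-negative cells, which represented the chondroblasts and were defined by the absence of both signals. The sorted control populations had 2 libraries each, 1 with an earlier and 1 with a later date in the column names. Which step the date marks was not stated. The labelled genotypes of these controls were Bmp4 f/f; gamma SMA eGFP or Notum 300/300; gamma SMA eGFP. The column names did not tell these 2 control genotypes apart. The 3 Notum mutant chondroblast libraries came from Notum 150/150; gamma SMA eGFP embryos, which carry a loss-of-function allele, and all 3 had the later date. The study's methods describe each sorted sample as a pool of 5 tracheas from a litter. Libraries B and C of the Notum mutants shared a number in their column names, and whether they came from separate litters was not stated, so p-values measure the spread between these libraries, which may be partly technical.

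SoxC proteins are transcription factors that bind DNA through an HMG box and activate their targets through a domain at the carboxy-terminal end. They are expressed in progenitor cells of many embryonic tissues, including neural, mesenchymal and skeletal progenitors, where they act in part redundantly. In skeletal development they have been linked to canonical Wnt signalling through beta-catenin and to non-canonical signalling through Wnt5a. Notum is a secreted enzyme that removes the lipid from Wnt ligands and so inactivates them. Wnt5a is a ligand of the non-canonical branch.

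All 3 genes are intronless in the GENCODE model used here (build GRCm38) and lie on the minus strand. Sox4 (ENSMUSG00000076431) spans chr13:28948919-28953713, Sox11 (ENSMUSG00000063632) spans chr12:27334264-27342574 and Sox12 (ENSMUSG00000051817) spans chr2:152393611-152398063. A second transcript model of Sox12 contains an intron. Their coding regions are 1320, 1185 and 942 bases long. Sox4 overlaps 1 annotated gene on the opposite strand, Gm26735, and since the library kit does not mark strand, reads of that pair cannot be told apart. No other annotated gene overlapped Sox11 or Sox12. The 3 coding sequences are most alike in a stretch of 90 bases within the part that encodes the HMG box, shown here because near-identical sequence decides whether reads of the 3 genes can be separated. It covers codons 61 to 90 of Sox4 (chr13:28952752-28952841), 51 to 80 of Sox11 (chr12:27342169-27342258) and 42 to 71 of Sox12 (chr2:152397486-152397575). Each is read 5′ to 3′ on the minus strand from the GENCODE transcripts, and capitals mark the positions at which the 3 genes do not all share the base.
Sox4: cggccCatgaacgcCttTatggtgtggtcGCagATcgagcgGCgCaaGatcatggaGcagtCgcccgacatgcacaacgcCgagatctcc
Sox11: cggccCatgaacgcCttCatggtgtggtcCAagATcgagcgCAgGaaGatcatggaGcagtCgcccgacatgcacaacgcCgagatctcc
Sox12: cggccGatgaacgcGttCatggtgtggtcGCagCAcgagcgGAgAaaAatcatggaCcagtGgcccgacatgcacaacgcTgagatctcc
Of the 90 bases, 76 were common to all 3 genes. Sox4 and Sox11 shared 84, Sox4 and Sox12 shared 79, and Sox11 and Sox12 shared 78. Over the whole transcripts, the longest run of identical bases was 48 between Sox4 and Sox11, 33 between Sox4 and Sox12 and 20 between Sox11 and Sox12. The deposited counts of the 3 genes were whole numbers in every library, although 56.0% of all values in the table were fractional.

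The upstream regions were compared because all 3 genes were higher in the Notum mutant libraries than in both controls. The windows run from 250 to 21 bases before the RefSeq start (GRCm38.p6), 5′ to 3′ on the minus strand, for Sox4 at chr13:28953720-28953949, Sox11 at chr12:27342739-27342968 and Sox12 at chr2:152398067-152398296. Capitals mark CCAAT, the box bound by NF-Y, or its reverse complement ATTGG.
Sox4: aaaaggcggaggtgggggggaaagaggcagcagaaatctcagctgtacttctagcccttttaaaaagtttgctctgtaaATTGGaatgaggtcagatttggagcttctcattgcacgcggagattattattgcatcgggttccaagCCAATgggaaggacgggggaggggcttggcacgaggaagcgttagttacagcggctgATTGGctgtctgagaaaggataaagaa
Sox11: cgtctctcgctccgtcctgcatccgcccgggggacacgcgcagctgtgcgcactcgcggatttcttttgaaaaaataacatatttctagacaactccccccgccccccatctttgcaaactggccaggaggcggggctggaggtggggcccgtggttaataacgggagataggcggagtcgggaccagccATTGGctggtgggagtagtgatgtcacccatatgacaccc
Sox12: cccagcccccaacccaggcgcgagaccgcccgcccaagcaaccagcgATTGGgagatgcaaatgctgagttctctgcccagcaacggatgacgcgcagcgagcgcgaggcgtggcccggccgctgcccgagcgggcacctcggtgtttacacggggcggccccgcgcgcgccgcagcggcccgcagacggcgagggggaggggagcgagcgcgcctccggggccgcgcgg
The Sox4 window held 3 CCAAT matches on either strand, and those of Sox11 and Sox12 held 1 each. Over all 32851 RefSeq promoters, 32.2% of windows of this length held at least 1. The TCF/LEF core CTTTGA, searched on both strands, was not in these letters of any of the 3 windows, and 13.05% of all windows held it. None held TATAAA, which 11.8% of all windows held. GGGCGG, the core of the GC box, occurred 2 times upstream of Sox11 and 3 times upstream of Sox12, but not upstream of Sox4, against 29.8% of all windows with a match. GC content was 49.1% in the Sox4 window, 59.6% for Sox11 and 76.1% for Sox12, with a median of 51.7% over all promoters.

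Library totals ranged from 6880660 to 21678177 counts, and the lowest count of any SoxC gene in a library was 121, for Sox12 in E11.5 control 16. Levels are given as CPM, read counts normalised to the size of each library, with TMM factors over the 18 libraries. The transcript of the deleted gene did not separate the groups. Notum stood at 13.7 and 86.0 CPM in the control chondroblasts and at 33.4, 35.3 and 13.7 CPM in the mutants, and Wnt5a differed by -0.20 ± 0.30 log2 units (SE) between mutant and control tracheas at E11.5, with overlapping libraries and an adjusted p of 1.00 by edgeR's quasi-likelihood test. Genotypes therefore rest on the labels. Sorted populations carried their defining markers. Summed cartilage genes reached 4473 and 3772 CPM in control chondroblasts against 474 and 561 CPM in epithelium, summed epithelial markers 3672 and 4299 CPM in epithelium against 32.8 and 34.2 CPM in chondroblasts, and summed smooth muscle markers 14191 and 11060 CPM in muscle against 72.7 and 73.2 CPM in chondroblasts. Muscle also held 1345 and 2873 CPM of cartilage genes. Some libraries stood apart. The earlier control chondroblast library held 69841 CPM of blood cell markers, mostly globins, against 6688 CPM in the later one and 6860 to 9360 CPM in the Notum mutants. Both E11.5 libraries numbered 7 held 3482 and 4372 CPM of dissociation and stress genes, against 215 to 571 CPM in the other E11.5 libraries.

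**Figure D1:**
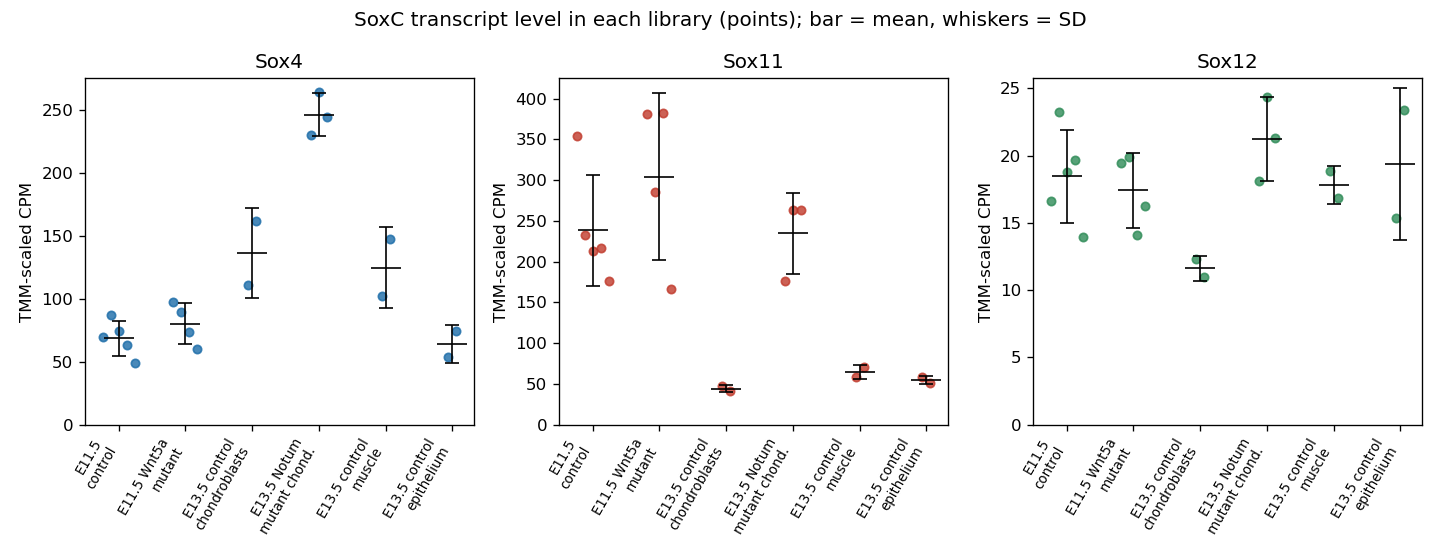
SoxC transcript level (y axis, TMM-scaled CPM, from 0) in every library of the 6 groups (x axis), with 1 panel per gene; points are libraries, bars the group mean and whiskers the SD. Sox11 lay at 176 to 354 CPM in the E11.5 controls, at 41.0 to 70.6 CPM in the sorted E13.5 controls and at 177 to 264 CPM in the Notum mutant chondroblasts.

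The Notum mutant chondroblasts showed higher levels of all 3 SoxC genes than both control chondroblast libraries, and Sox11 differed most. Sox11, a strong activator of the SoxC group, stood at 47.4 CPM (earlier) and 41.0 CPM (later) in the controls, while mutants A, B and C had 177, 264 and 263 CPM. The lowest mutant was thus well above the highest control. The fitted difference was 2.43 ± 0.22 log2 units (SE, 3 mutant and 2 control libraries), a 5.39-fold higher level. Among the 14120 genes in the fit, 216 had a larger log2 difference, and 20 of the 9943 genes with at least 10 CPM did so.

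Sox4, the other strong activator, measured 111 and 162 CPM in the controls and 231, 265 and 245 CPM in the mutants. Its groups did not overlap either, and the fitted difference was 0.87 ± 0.19 log2 units, or 1.83-fold. Sox12, the weakest activator of the group, measured 12.3 and 10.98 CPM in the controls and 18.1, 24.4 and 21.3 CPM in the mutants, again without overlap, with a difference of 0.89 ± 0.26 log2 units, or 1.86-fold. All 3 members lay above both controls in every mutant library, as did 16.6% of the genes in the fit. Since these libraries were used in choosing the members, nothing is read from that count. By edgeR's quasi-likelihood test, 0 genes of the whole table reached an adjusted p under 0.05 in this comparison, 1762 had an unadjusted p under 0.05, and DESeq2 gave 526 at an adjusted p under 0.05.

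The size of the Sox4 difference depended on the control library. Against the earlier control alone, the mutant mean was 2.21-fold for Sox4, 4.95-fold for Sox11 and 1.73-fold for Sox12. Against the later control alone, which shares its date with the mutants, it was 1.52-fold, 5.72-fold and 1.94-fold. With the date as a term in the fit, the earlier control, alone at its date among chondroblasts, no longer bears on the estimate. The estimate then rests on the later control against the 3 mutants. In that fit Sox4 differed by 0.61 ± 0.14 log2 units, Sox11 by 2.52 ± 0.28 and Sox12 by 0.96 ± 0.30. Sox11 exceeded each control by at least 3.73-fold in every mutant library, whereas the smallest ratio was 1.42 for Sox4, in mutant A over the later control, and 1.47 for Sox12, in mutant A over the earlier control. Genotype differences other than Notum between mutant and Bmp4 f/f controls cannot be told apart from the Notum genotype.

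**Figure D2:**
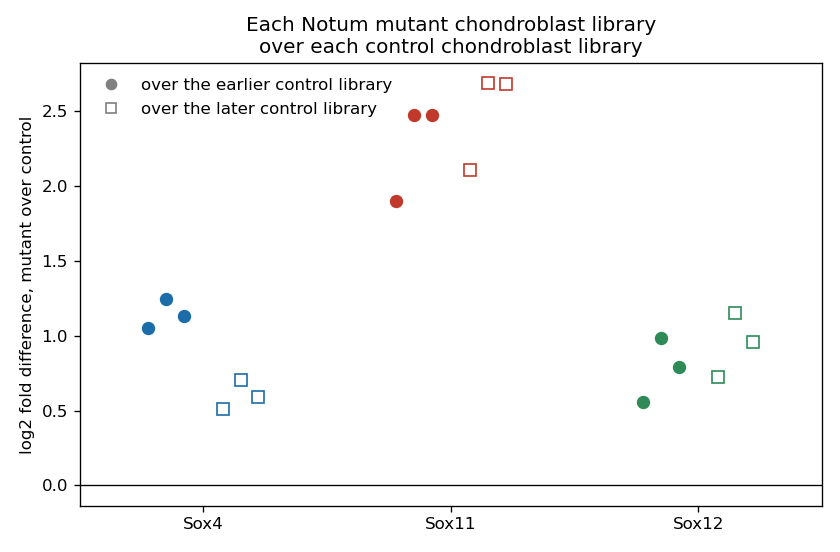
Log2 fold difference of each Notum mutant chondroblast library over each control chondroblast library (y axis) for the 3 SoxC genes (x axis); filled circles use the earlier control and open squares the later one. The Sox11 ratios run from 3.73 to 6.43-fold, and the Sox4 ratios fall to between 1.42 and 1.63-fold over the later control.

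Markers of other cell types moved with the mutant libraries in part. Summed neural crest and glial markers, all 8 of which are in the table, stood at 108 and 168 CPM in the controls and at 234, 223 and 260 CPM in the mutants. At an unadjusted p under 0.05 and a fold over 1.5, 5.51% of all genes were higher and 2.9% lower. Of the 7 neural crest and glial markers tested, 2 were higher at those cutoffs. These were Erbb3, a receptor of glial progenitors, at a mean of 22.2 CPM in controls and 50.8 CPM in mutants, and Ednrb, an endothelin receptor, at 70.6 and 107.8 CPM. Sox10, a transcription factor of neural crest and glia, averaged 9.53 CPM in controls and 24.6 CPM in mutants, and S100b 4.62 and 3.06 CPM, without passing. Foxd3 was at 0 and 0.0506 CPM in the controls and at 0.244 to 0.341 CPM in the mutants. Among the blood cell markers, the macrophage genes C1qa and Csf1r were higher in the mutants at the same cutoffs, C1qa at means of 13.8 CPM in controls and 31.7 CPM in mutants and Csf1r at 59.5 and 133 CPM, while 4 other genes of that list were lower. Summed neuronal markers (11 of 11 in the table) overlapped, at 242 and 354 CPM against 288 to 395 CPM. Their part in the SoxC differences was not tested, and in bulk libraries fewer cells of a type and less RNA per cell cannot be told apart. Leaving the blood cell markers out before scaling gave 0.85, 2.41 and 0.87 log2 units for Sox4, Sox11 and Sox12. Summed proliferation genes overlapped, with 1696 and 1401 CPM in the controls and 1307 to 1539 CPM in the mutants. Epithelial markers were low in both groups, at 32.8 and 34.2 CPM against 17.5 to 27.7 CPM.

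Of the other Sox genes, 8 of 16 were measurable in the Notum comparison, 2 were higher at those unadjusted cutoffs and none lower, against 5.51% of all genes higher and 2.9% lower, with a median difference of 0.65 log2 units against 0.02 over all genes. These were Sox6 and Sox5, partners of Sox9 in the cartilage program. Mean Sox6 was 63.3 CPM in controls against 128 CPM in mutants (1.04 ± 0.24 log2 units), and mean Sox5 68.9 against 118 CPM (0.81 ± 0.20). Neither passed an adjusted p under 0.05 by edgeR's quasi-likelihood test (0.256 and 0.270). The 4 genes reported downstream of SoxC, Tead2, Tubb3, Dcx and Gdf5, were all measured and none passed the unadjusted cutoffs or an adjusted p under 0.05. Tead2, a TEAD factor of the Hippo pathway, averaged 111 CPM without and 131 CPM with the Notum mutation (0.26 ± 0.16 log2 units), and Gdf5, a ligand of the BMP family, 122 CPM in both groups. The median of the 4 was 0.22 log2 units.

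At the unadjusted cutoffs, 5.51% of all genes were higher and 2.9% lower in the Notum comparison. Among 12 beta-catenin pathway genes, 3 were higher at these cutoffs and none lower, with a median of 0.34 log2 units. Lef1, a nuclear partner of beta-catenin, averaged 31.9 CPM in control and 99.2 CPM in mutant libraries and differed by 1.66 ± 0.17 log2 units (edgeR adjusted p = 0.0796). Gsk3b, the kinase that marks beta-catenin for degradation, differed by 0.93 ± 0.14 log2 units, and Axin2, a target and feedback inhibitor of the pathway, by 1.30 ± 0.40 at only 9.39 and 3.87 CPM. Of the TEAD and Hippo genes, 13 of 14 were measured and 1 was higher at the unadjusted cutoffs, Tead1, by 1.05 ± 0.21 log2 units (edgeR adjusted p = 0.243). The cartilage program had 4 higher and 1 lower of 13 measured at those cutoffs, and their median was 0.45 log2 units. The higher ones were Matn4, Sox6, Sox5 and Col9a3, and Matn4, a cartilage matrix protein, had a mean of 258 CPM in control and 470 CPM in mutant libraries. The lower one was Cnmd, which encodes chondromodulin, at 56.9 CPM in controls and 6.59 CPM in mutants (-3.08 ± 0.85 log2 units, edgeR adjusted p = 0.290). The POU factors of class III, which pair with SoxC proteins in neural cells, were below the filter, and their 4 members summed to at most 3.00 CPM in any chondroblast library.

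The second comparison asked how SoxC levels stood in the E11.5 trachea when mesenchymal Wnt5a was deleted. The libraries overlapped for all 3 genes, while 0.696% of genes lay higher and 0.505% lower without overlap. Sox4 measured 69.7, 87.0, 74.5, 63.7 and 49.1 CPM in controls 7, 13, 16, 17 and 18 and 97.7, 89.5, 73.9 and 60.4 CPM in mutants 7, 13, 17 and 18, where the number is that of the column name. Sox11 measured 354, 232, 213, 216 and 176 CPM in the same controls and 382, 286, 382 and 167 CPM in the mutants. Sox12 measured 16.6, 23.2, 18.8, 19.6 and 14.0 CPM in the controls and 19.4, 19.9, 14.1 and 16.2 CPM in the mutants. The fitted differences were 0.22 ± 0.19 log2 units for Sox4, 0.35 ± 0.26 for Sox11 and -0.09 ± 0.19 for Sox12, and none reached a fold of 1.5.

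The column numbers joined 4 mutant libraries with a control. Sox4 was higher in the mutant of every pair, by 1.40-fold in pair 7, 1.03-fold in pair 13, 1.16-fold in pair 17 and 1.23-fold in pair 18. Sox11 was higher in 3 of 4 pairs, at ratios of 1.08, 1.23, 1.77 and 0.944, and Sox12 in 2 of 4 pairs, at ratios of 1.17, 0.857, 0.716 and 1.16. With the number as a term in the fit the differences were 0.26 ± 0.14 log2 units for Sox4, 0.29 ± 0.16 for Sox11 and -0.06 ± 0.19 for Sox12. Without pair 7, the one high in dissociation genes, they were 0.13, 0.42 and -0.17. Mutant 17, whose Sox11 was the furthest above its control, also held 502 CPM of neuronal markers and 796 CPM of epithelial markers, against 48.4 to 117 CPM and 332 to 468 CPM in the other mutants. Its Wnt5a stood at 46.3 CPM, against 89.5 CPM in control 17. Wnt5a was at 78.0 to 126 CPM in the other mutants and at 62.1 to 159 CPM in the controls. The part of these markers and of Wnt5a in the Sox11 level of mutant 17 was not tested.

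**Figure D3:**
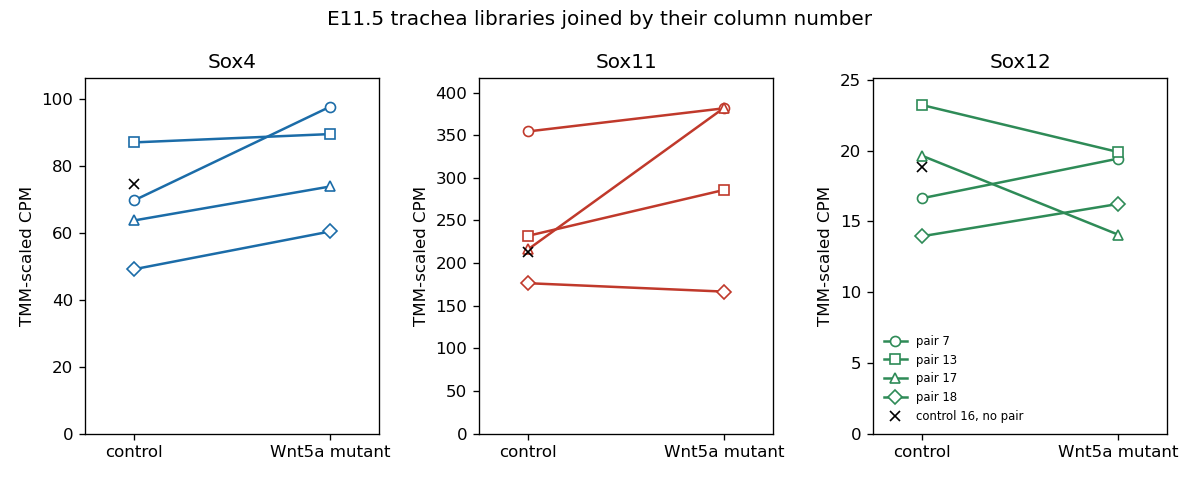
SoxC levels (y axis, TMM-scaled CPM, from 0) in E11.5 control and Wnt5a mutant tracheas (x axis), with lines joining libraries that share a column number and a cross for control 16, which has no partner. All 4 Sox4 lines rise, by 1.03 to 1.40-fold, and the Sox11 and Sox12 lines run in both directions.

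At E11.5, 2 genes of the whole table (0.0136%) reached an adjusted p under 0.05 by edgeR, Myog and Myod1, which drive skeletal muscle differentiation. Myog averaged 72.7 CPM in mutants and 13.46 CPM in controls (edgeR adjusted p = 0.0133) and Myod1 16.3 and 4.30 CPM (edgeR adjusted p = 0.0188). Of 4 genes reported downstream of SoxC, 1 passed an unadjusted p under 0.05 and a fold over 1.5, Dcx, a microtubule protein of migrating neurons, at 18.3 CPM in mutants and 10.4 CPM in controls. Gdf5 averaged 14.8 and 5.72 CPM, a difference of 1.36 ± 0.67 log2 units that did not pass. Of 10 other Sox genes measured, 1 was higher and 1 lower at those cutoffs. They were Sox2, at 4.47 against 2.57 CPM, and Sox8, at 15.6 against 27.0 CPM. Sox2 is also an epithelial marker, and 4 of 9 epithelial markers (Sox2, Cldn6, Cdh1 and Cldn7) were higher at those cutoffs and none lower, with a median of 0.74 log2 units, and their part in its level was not tested. The cartilage program had 1 of 12 higher, Col9a1, at 164 against 102 CPM, and the beta-catenin pathway 1 of 12 lower, Nkd2, at 19.3 against 30.2 CPM. Of 14 TEAD and Hippo genes, 1 was lower, Tead4, at 1.44 against 3.13 CPM. At those cutoffs 1.19% of all genes were higher and 2.53% lower.

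Among the sorted control populations, Sox4 was lowest in epithelium, and Sox11 and Sox12 were lowest in chondroblasts. Sox4 measured 111 and 162 CPM in chondroblasts, 102 and 147 CPM in muscle and 53.6 and 74.8 CPM in epithelium, at the earlier and later date in each. Epithelium was below both mesenchymal populations without overlap, and chondroblasts and muscle overlapped. The fitted log2 differences were 1.07 ± 0.32 for chondroblasts over epithelium, -0.95 ± 0.32 for epithelium over muscle and 0.12 ± 0.32 for chondroblasts over muscle. Within each date, chondroblasts exceeded epithelium by 2.08-fold and 2.17-fold and muscle by 1.09-fold and 1.10-fold. The later library was higher than the earlier one by 1.46-fold, 1.45-fold and 1.40-fold in chondroblasts, muscle and epithelium, so that Sox4 moved with the date in all 3 populations.

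Sox11 was in a narrow range over the sorted controls. It measured 58.8 and 70.6 CPM in muscle, 58.6 and 51.4 CPM in epithelium and 47.4 and 41.0 CPM in chondroblasts. Chondroblasts were lowest without overlap, by -0.56 ± 0.30 log2 units against muscle and -0.34 ± 0.30 against epithelium. Sox12 was also lowest in chondroblasts, with 12.3 and 10.98 CPM in chondroblasts, 18.8 and 16.8 CPM in muscle and 15.4 and 23.4 CPM in epithelium. Its differences were -0.63 ± 0.64 against muscle and -0.75 ± 0.64 against epithelium, within an SE or little more. Groups that do not overlap were common with 2 libraries each. Chondroblasts lay above muscle in 21.2% and below it in 19.2% of genes, above epithelium in 28.5% and below it in 23.8%, and epithelium lay above muscle in 24.3% and below it in 27.5%. The earlier muscle library held 2505 CPM of skeletal muscle markers and the later one 659 CPM, against at most 41.9 CPM in the other sorted controls, and the part of these cells was not tested.

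In these populations cartilage genes differed between epithelium and both mesenchymal populations. By edgeR's quasi-likelihood test, 4 of 13 cartilage genes were higher in chondroblasts than in epithelium at an adjusted p under 0.05, as were 1.72% of all genes, and 3 of 13 were lower in epithelium than in muscle, as were 2.41%. These were Matn4, Col9a1, Col11a1 and, in the first comparison, Col9a2. Matn4 led both, at 258 CPM in chondroblasts, 178 CPM in muscle and 6.41 CPM in epithelium. Of the genes reported downstream of SoxC, Gdf5 was higher in chondroblasts than in epithelium by 2.62 ± 0.29 log2 units (edgeR adjusted p = 0.0122), and higher in muscle than in epithelium (edgeR adjusted p = 0.0218). Sox9, the central cartilage factor, averaged 454 CPM in chondroblasts, 331 CPM in muscle and 45.9 CPM in epithelium, without passing (edgeR adjusted p = 0.0573 for chondroblasts over epithelium). No gene of the cartilage, beta-catenin, TEAD and Hippo, other Sox or SoxC downstream lists passed between chondroblasts and muscle.

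The sorted E13.5 controls were also compared with E11.5 control tracheas. The levels of all these groups were known when the 3 SoxC genes were chosen, so these genes are described here without a test. Sox11 was lower at E13.5 in muscle and epithelium. In muscle the difference was -1.87 ± 0.28 log2 units and in epithelium -2.11 ± 0.29. In chondroblasts Sox11 stood at 0.186 times the E11.5 level, a difference of -2.43 ± 0.28. Sox11 lay at 41.0 to 70.6 CPM in the sorted control libraries and at 176 to 354 CPM in the E11.5 controls. A higher log2 difference than that of Sox11 was held by 89.4% of genes in muscle, 86.5% in epithelium and 93.3% in chondroblasts. These 3 comparisons share their 5 control libraries.

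Sox4 was higher in muscle by 0.87 ± 0.23 log2 units, and 14.1% of genes had a higher log2 difference. With 1 library left out, the Sox4 difference in muscle ranged from 0.56 to 1.08 log2 units. In chondroblasts the Sox4 difference was 0.99 ± 0.23, and it was 0.69 without their later library. In epithelium Sox4 differed by -0.10 ± 0.24. Sox12 differed by -0.04 ± 0.27 in muscle, by 0.07 ± 0.31 in epithelium and by -0.66 ± 0.27 in chondroblasts.

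**Figure D4:**
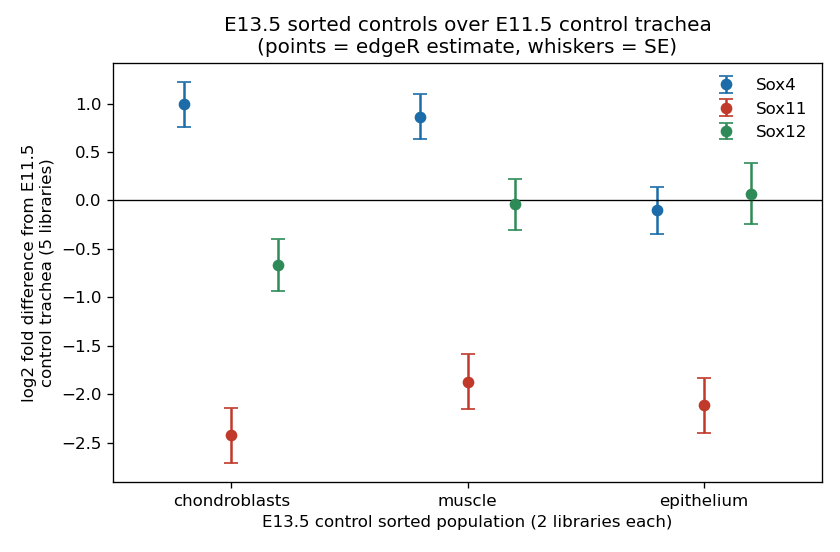
Log2 fold difference of each E13.5 sorted control population from E11.5 control trachea (y axis) for the 3 SoxC genes, by population (x axis); points are edgeR estimates and whiskers their SE. Sox11 sits between -1.87 and -2.43 in all 3 populations, and Sox4 is near 0 in epithelium and at 0.99 and 0.87 in chondroblasts and muscle.

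Stage, sorting and cell makeup differed together between these groups and cannot be told apart. Dissociation and stress genes summed to 3867 to 14939 CPM in the sorted controls against 284 to 571 CPM in 4 of 5 E11.5 controls. Control 7, which held 3482 CPM of them, had 354 CPM of Sox11, the highest of the controls. This is 1 library, and the part of dissociation and stress genes in the Sox11 levels was not tested. Proliferation genes summed to 2764 to 3062 CPM in the E11.5 controls and 1191 to 2496 CPM in the sorted ones, and their part was not tested. Of the cartilage program, 11 of 13 genes were higher in chondroblasts than at E11.5 by edgeR at an adjusted p under 0.05 and none lower, against 7.01% and 5.45% of all genes, with a median of 2.85 log2 units against -0.05 over all genes, and in muscle 9 were higher and 1, Hapln1, lower. In epithelium none was higher and 1 of 12, Col9a1, lower. Gdf5 was higher in chondroblasts, by 4.40 ± 0.74 log2 units (edgeR adjusted p = 0.00793), and in muscle, by 3.70 ± 0.74 (edgeR adjusted p = 0.0105). Tead2 differed by -0.09 ± 0.21 log2 units in chondroblasts (edgeR adjusted p = 0.812).

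Among other Sox genes, 2 of 10 were higher and 3 lower in chondroblasts, 1 of 10 higher and 2 lower in muscle, and 2 of 11 higher and 5 lower in epithelium. Over all genes, 7.01% were higher and 5.45% lower in chondroblasts, 9.85% and 10.1% in muscle and 7.65% and 9.41% in epithelium. The higher ones were Sox5 and Sox6 in chondroblasts, Sox6 in muscle and Sox2 and Sox21 in epithelium. The lower ones were Sox2, Sox8 and Sox17 in chondroblasts, Sox7 and Sox18 in muscle and Sox7, Sox8, Sox10, Sox17 and Sox18 in epithelium. Sox6 was higher in chondroblasts, by 1.47 ± 0.27 log2 units (edgeR adjusted p = 0.0114). Sox2, a factor of the airway epithelium, was higher in sorted epithelium, by 3.92 ± 0.31 (edgeR adjusted p = 3.67e-04), and lower in chondroblasts, by -3.64 ± 0.76. Of 12 beta-catenin pathway genes in chondroblasts, 3 were higher (Tcf7, Tcf7l2 and Notum) and 1 lower (Nkd2), with Tcf7, a nuclear partner of beta-catenin, at 23.0 against 4.39 CPM. In muscle 3 were higher (Tcf7, Nkd1 and Notum) and none lower, and in epithelium none was higher and 1 lower (Nkd2). The TEAD and Hippo list gave 1 of 14 higher in chondroblasts and in muscle, Wwtr1, which encodes the co-activator TAZ, and none in epithelium.

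Set side by side, the Sox11 level in Notum mutant chondroblasts at E13.5 (177 to 264 CPM) lay within the range of the E11.5 control tracheas (176 to 354 CPM), and the control chondroblasts (41.0 and 47.4 CPM) lay far below both. Sox4 measured 231 to 265 CPM in the Notum mutants and at most 162 CPM in the other 5 groups. Sox12 in the Notum mutants (18.1 to 24.4 CPM) overlapped all other groups except the control chondroblasts. The Notum mutant and control chondroblast libraries served to choose the members, so nothing is read from these separations. Per kilobase of transcript, Sox11 led in the E11.5 controls at 28.7 ± 8.2 CPM per kilobase (SD, n = 5), ahead of Sox4 at 14.4 ± 2.9 and Sox12 at 4.15 ± 0.78. In control chondroblasts Sox4 led at 28.5 ± 7.5 CPM per kilobase (n = 2), with Sox11 at 5.32 ± 0.54 and Sox12 at 2.61 ± 0.21. In the Notum mutants Sox4 reached 51.4 ± 3.6 CPM per kilobase (n = 3) and Sox11 28.2 ± 6.0, and Sox12 remained lowest at 4.77 ± 0.70.

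The ratio of Sox11 to Sox4 counts, which does not depend on the scaling of a library, separated the whole E11.5 tracheas from the sorted E13.5 populations. Stage, sorting and cell makeup differ together between these and cannot be told apart. It was 2.67 to 5.09 in the E11.5 controls and 2.76 to 5.18 in the Wnt5a mutants. In E13.5 controls it was 0.425 and 0.253 in chondroblasts, 0.577 and 0.479 in muscle and 1.09 and 0.688 in epithelium. The Notum mutants had 0.766, 0.997 and 1.07, above both control chondroblast libraries, within the range of control epithelium and below all E11.5 libraries. Within the sorted controls the later library had the lower ratio in each population.

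**Figure D5:**
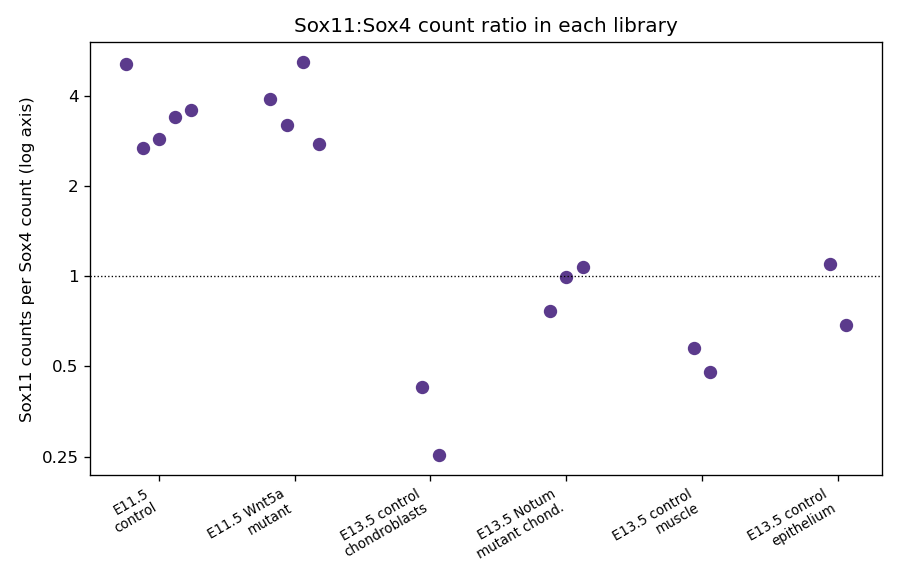
Sox11 counts per Sox4 count in each library (y axis, log scale) by group (x axis), with a dotted line at 1. All 9 E11.5 libraries lie at 2.67 or above, the 2 control chondroblast libraries at 0.425 and below, and the 3 Notum mutant libraries from 0.766 to 1.07.

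Ordered by mean level, Sox4 ran from the Notum mutants through control chondroblasts, muscle, Wnt5a mutant tracheas and E11.5 control tracheas to epithelium. Chondroblasts and muscle overlapped, and so did the last 3 groups. The Notum mutants lay above control chondroblasts, but these libraries served to choose the members, so nothing is read from that. Sox11 was highest in Wnt5a mutant tracheas, followed by E11.5 controls and Notum mutants, which all overlapped, and then by muscle, epithelium and chondroblasts. Muscle and epithelium differed by less than their SE (-0.22 ± 0.30 log2 units), and chondroblasts were below both. Sox12 ran from the Notum mutants through epithelium, E11.5 controls, muscle and Wnt5a mutants, which overlapped in turn, to control chondroblasts.

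Over the 18 libraries the 3 genes did not follow one another. Pearson's r of log2 CPM was -0.02 for Sox4 and Sox11, 0.20 for Sox4 and Sox12 and 0.39 for Sox11 and Sox12. The libraries of a group and date share their source, so these are descriptions. The genes most alike to Sox4, among 10051 with a mean of at least 10 CPM, were App (r = 0.94), Tab2 (0.93) and Bcl9l (0.90). App, the amyloid precursor protein, averaged 499 ± 43 CPM (SD, n = 3) in the Notum mutants, 292 ± 95 CPM in control chondroblasts and 182 ± 15 CPM in E11.5 controls. For Sox11 they were Msantd3 (0.89), E030030I06Rik (0.88) and Vwf (0.84), and Msantd3 averaged 24.2 ± 2.2 CPM in E11.5 controls, 11.3 ± 0.6 CPM in control chondroblasts and 19.9 ± 2.3 CPM in Notum mutants. For Sox12 they were Tle3 (0.77), Yap1 (0.76) and Larp1 (0.72).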

How the data were processed

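RNA-seq of mouse trachea was analysed in 18 libraries. Per the labels, cDNA of poly(A) RNA came from SMART-Seq v4 amplification and libraries from Nextera XT, with Partek and mm10 named for the processing. The aligner was not given in the sources used here. The authors made a table of expected counts, estimated numbers of reads per entry that need not be whole, and deposited it without normalization, with 47248 entries. Entries were summed to 26202 symbols and rounded. Of 22 value columns, 4 matched no sample's labels and were not used. Groups were read from the genotype and population in the column names, which gave 2 of 3 labelled samples for each sorted control population and 3 of 4 for the Notum mutants.

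A gene was kept when over 50% of a group's libraries had 1 CPM or more, and fitted with edgeR 4.0.16 (quasi-likelihood test, TMM, R 4.3.3, 2-sided), with Benjamini-Hochberg adjustment over all genes tested and a threshold of 0.05. The unadjusted cutoffs, an edgeR p under 0.05 and a fold over 1.5, take their sizes from the study, which set them on DESeq2 results with an FPKM condition. Here the CPM filter stands in for that condition. All 3 SoxC genes passed the filter in all 8 comparisons, which used each pair of groups alone or the 3 sorted controls in 1 fit. The standard error is the absolute log2 difference divided by the square root of F. DESeq2 1.42.0, limma 3.58.1 (voom), other scalings and filters, blocks and leaving out each library were tried as alternatives. Fits were also run on simulated data, which had less spread between libraries than these data. The simulation therefore does not show how the fits perform here.

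The members and all gene lists were chosen with earlier results of these data known. The SoxC differences between the sorted E13.5 controls and E11.5 tracheas were planned as tests. They are given without one, since the levels were known when the members were chosen. Other genes are named where they had 1 of the 4 smallest p of their list in a comparison, or 1 of the 3 highest correlations with a member. Where 5 or fewer genes of a list passed, those outside this rule, such as Cnmd, Col9a3 and Sox21, and the named glial, epithelial, macrophage and skeletal muscle markers were named after their values were seen. At E11.5, deviations from the group means correlated between same-numbered control and mutant libraries at 0.529 (number 7), 0.192 (13), 0.138 (17) and 0.101 (18). Differently numbered libraries correlated at -0.322 to 0.218, the highest being mutant 17 with control 16, above its own number. The column numbers were taken to pair the libraries, which rests mostly on number 7.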

Additional observations from a re-analysis of the deposited data

How the results depend on the processing

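Over 384 alternative values of the 3 genes in the 8 comparisons, 373 kept their direction. For Sox4 in Notum mutant against control chondroblasts (0.87 log2 units), the replicate block by date gave 0.61. Leaving out 1 library gave 0.62 to 1.16, the lowest without the earlier and the highest without the later control. Sox12 in chondroblasts against epithelium ranged from -1.01 to -0.43 and in epithelium against muscle from -0.20 to 0.39 with 1 library left out, the least without the later epithelium library, in which case the second difference turned. The other turns were within the SE. Against E11.5 tracheas, Sox4 in chondroblasts ranged from 0.69 to 1.20 with 1 library left out, and in muscle from 0.56 to 1.08. The fit of 4 control groups together, chosen after seeing the data, gave Sox4 in muscle 0.87. Under every alternative, the Sox11 difference from E11.5 lay between -2.03 and -1.68 in muscle and between -2.23 and -1.93 in epithelium. Taking only the largest entry per symbol raised levels to 281.9 CPM for Sox4 in Notum mutants, 73.2, 62.9 and 49.8 CPM for Sox11 in muscle, epithelium and chondroblasts, and 20.1 and 13.1 CPM for Sox12 in muscle and chondroblasts, since fewer counts then enter the totals.

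With the replicate block by column number, Sox4 gave 0.26 log2 units at E11.5, against 0.22 without it. The 3 genes were not tested there. No paired analysis was possible because the E13.5 and E11.5 libraries share no number for the 3 comparisons between stages. By Spearman's rho the most alike genes changed. They were Sh3pxd2a and Tab2 (both 0.89) for Sox4, Rps6ka2 (0.87) for Sox11 and Urm1 (0.75) for Sox12. Of the genes named by Pearson's r, only Tab2 for Sox4 and Yap1 for Sox12 stayed among the 3 highest.

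Counts of genes past a threshold moved far more, and which choice caused this was not tested. At an adjusted p under 0.05, the Wnt5a comparison gave 2 genes (0 to 40 under the alternatives, 1 with the block) and 546 at the unadjusted cutoffs (299 to 1451). The Notum comparison gave 0 by edgeR, 526 by DESeq2 and 5 by voom, and 1188 at the unadjusted cutoffs. Its counts from fits that rest on 1 control library are left out. With those fits included, 7 alternatives gave at least 1 gene at an adjusted p under 0.05 and 8 gave 0. Chondroblasts against muscle gave 18 (2 to 532), against epithelium 375 (20 to 2961), and epithelium against muscle 490 (162 to 3576). Against E11.5, chondroblasts gave 1835 (664 to 3493), muscle 2928 (1391 to 4290) and epithelium 2495 (1442 to 7075). Each sorted control group has 2 libraries, and the lowest SoxC count in any library was 121.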

Other observations

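Endothelial markers overlapped between control chondroblasts (133 and 69.7 CPM summed over 7 genes) and Notum mutants (68.7 to 97.4 CPM). Summed smooth muscle markers were 72.7 and 73.2 CPM in the controls and 81.5 to 114 CPM in the mutants, without overlap. Skeletal muscle markers summed to 41.9 and 34.6 CPM in control chondroblasts and 40.5 to 70.2 CPM in Notum mutants. Dissociation and stress genes summed to 4830 and 3867 CPM in control chondroblasts and 2105 to 4192 CPM in Notum mutants. Summed SoxC levels were 171 and 214 CPM in control chondroblasts, 425, 553 and 529 CPM in Notum mutants and 239 to 441 CPM in E11.5 controls.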
